A study of Homo sapiens with 48 samples.

Results

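The genes described here are 7 chemokines that colon cancer cells can express: CXCL1, CXCL2, CXCL3, CXCL5, CXCL8, CXCL16 and CCL20. They were picked by name, and all 7 were found by their Ensembl identifiers among the 58721 genes of each table. The cells were DLD-1, a human colorectal cancer line. The CNOT1-AID and CNOT4-AID lines carried an auxin-inducible degron at the genomic CNOT1 or CNOT4 locus, so that auxin removes that protein, and the untagged parental line carried TIR1, the plant receptor that auxin needs for this. In the steady-state set each line received 1 mM auxin or was left untreated for 8 h or 24 h, which gave 12 groups of 2 libraries. In the triptolide set all lines, the parental one too, received 1 mM auxin for 2 h and then triptolide, an inhibitor of transcription initiation, at 1 µM for 0, 3, 6 or 12 h, which gave another 12 groups of 2 libraries. Whether a tagged line was derived from 1 clone, and whether the libraries of a group came from separate cultures, is not given in the sources used here, so the spread behind the p-values is that between libraries and could be technical.

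Chemokines are small secreted proteins that attract leukocytes along a gradient. CXCL1, CXCL2, CXCL3, CXCL5 and CXCL8 (interleukin-8) bind the receptor CXCR2 and draw neutrophils, and CXCL8 also binds CXCR1. CCL20 attracts cells that carry CCR6, and CXCL16 is made as a membrane protein that ADAM10 and ADAM17 can cut loose and that binds CXCR6. Inflammatory signals switch on many of these genes through the transcription factor NF-kB. Their mRNAs often carry AU-rich elements in the 3' untranslated region (3' UTR), to which proteins such as ZFP36 (tristetraprolin) bind and bring the CCR4-NOT complex. That complex shortens poly(A) tails, CNOT1 is its scaffold, and CNOT4 is a ubiquitin ligase that associates with it.

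Of the members, 5 (CXCL8, CXCL1, CXCL5, CXCL3 and CXCL2) lie together on chromosome 4 between 73740506 and 74099293 (GRCh38). CXCL16 is on chromosome 17 from 4733526 to 4739922, and CCL20 on chromosome 2 from 227805739 to 227817564. The RefSeq promoters (GRCh38.p14, 250 bases before to 50 after the annotated start) held 6 of the 7 members, CXCL16 being the exception. The NF-kB type motif GGAATTTCC, searched on both strands, was present once in all 5 chromosome 4 promoters and not in that of CCL20. Over all 35116 promoters of that length, 162 (0.46%) held it. The surrounding bases are shown because these 5 genes share the motif but not their level. Capitals mark the motif, and each sequence reads along the strand of its gene.
CXCL8 (chr4:73740468-73740497, plus strand): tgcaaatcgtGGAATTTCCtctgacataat
CXCL1 (chr4:73869305-73869334, plus strand): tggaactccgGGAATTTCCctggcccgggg
CXCL5 (chr4:73998748-73998777, minus strand): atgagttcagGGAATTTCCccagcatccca
CXCL3 (chr4:74038748-74038777, minus strand): tggagctccgGGAATTTCCctggcccggcc
CXCL2 (chr4:74099253-74099282, minus strand): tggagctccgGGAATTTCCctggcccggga

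Counted in bases from the RefSeq start, with minus for upstream, the motif began at −91 in CXCL8, −90 in CXCL5, −78 in CXCL1 and CXCL3 and −77 in CXCL2. In GENCODE 29, whose gene models can start farther upstream, 3 of the matches (CXCL5, CXCL3 and CXCL2) fall inside the gene. The bases around it are nearly the same in CXCL1, CXCL2 and CXCL3, while CXCL5 and CXCL8 differ from them and from each other. The AP-1 motif TGANTCA was found in the CXCL8 promoter, at −137, and in none of the other 5 promoters, against 7.71% of all promoters. A match describes the letters of these windows and does not show a bound site.

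The 3' UTRs of GENCODE 29 transcripts differed more. The AU-rich pentamer ATTTA occurred 11 times in CXCL5 (1995 bases), 10 times in CXCL2 (721 bases), 9 times in CXCL8 (1252 bases), 7 times in CXCL3 (673 bases), 5 times in CXCL1 (706 bases), 3 times in CCL20 (451 bases) and 1 time in CXCL16 (977 bases). The median over 18441 coding genes was 1. The longer element TTATTTATT, the preferred site of ZFP36 family proteins and present in 7.70% of those UTRs, occurred 5 times in CXCL2, 3 times in CXCL1 and 1 time each in CXCL3 and CXCL8, and 0 times in CXCL5, CCL20 and CXCL16. The 30-base stretch with the most ATTTA copies is shown for the members whose decay is described, with ATTTA in capitals. Copies run into each other in CXCL2 and CXCL8 and stand apart in CXCL5.
CXCL2: aagtcttctATTTATTTATTTATTTATTTA
CXCL8: taacctATTTAttATTTAtgtATTTATTTA
CXCL3: ttacgagggttctacttATTTAtgtATTTA
CXCL5: caaacaatttgaatataaATTTAtcATTTA
CXCL16: gccactgccctctcttaggcccctcATTTA

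The label of these genes held for only some of them, since 2 of the 7 carried nearly all the signal. Levels are in TPM, a transcript's length-corrected share of a library scaled to a fixed total, which can be set side by side between genes. Over the 24 steady-state libraries CXCL5 averaged 76.7 TPM (5.70 to 125) and CXCL16 averaged 15.3 TPM (7.45 to 21.1). CXCL3 averaged 0.841 TPM (0.26 to 1.58) and CXCL2 averaged 0.617 TPM (0.06 to 1.08). These are low levels, and the remaining members were lower still. CXCL8 averaged 0.113 TPM with a highest value of 0.35, CXCL1 averaged 0.045 TPM and was listed at 0 in 6 libraries, and CCL20 averaged 0.0258 TPM and was listed at 0 in 16. In the triptolide set, where whole counts were deposited, the sums over 24 libraries were 175135 counts for CXCL5, 20833 for CXCL16, 176 for CXCL3, 169 for CXCL8, 92 for CXCL2, 37 for CCL20 and 6 for CXCL1.

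The steady-state test asked for 1 TPM or more in 2 or more libraries, and 3 of the 7 (CXCL5, CXCL16 and CXCL3) met this. The triptolide filter passed CXCL5, CXCL16, CXCL3, CXCL2 and CXCL8, 5 of the 7. CXCL1 and CCL20 passed neither, and CXCL1 had 0 counts in 21 of the 24 triptolide libraries, where up to 3 counts a library remain possible at that depth. CXCL1, CXCL2 and CXCL3 are close copies of each other: of the 50-base stretches of the CXCL2 transcript, 5.13% also occurred in CXCL1 and 4.62% in CXCL3, so part of their reads can be assigned to more than 1 of them and their separate values are uncertain. CXCL16 overlaps MED11 on the opposite strand by 85 bases, and whether the counting used strand is not given in the sources used here.

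The libraries as a whole held 10 of 11 colon epithelial markers at a mean of 1 TPM or more, with a summed level of 2798 to 5194 TPM. Blood cell markers summed to 0.51 to 4.04 TPM, with CD14 as the only 1 of 8 at a mean of 1 TPM or more. No fibroblast or endothelial marker reached that level, with 0 of 6 and 0 of 4. Protein-coding genes held 30.6% of TPM in replicate 1 of CNOT4-AID with auxin at 8 h, against 37.8% to 54.7% in the other 23 libraries. The degron acts on protein, so the mRNAs do not check depletion: at 8 h CNOT1 averaged 46.6 ± 2.34 TPM in CNOT1-AID cells with auxin, against 54.9 ± 8.42 TPM untreated (SD, n = 2 each), and CNOT4 averaged 9.72 TPM in CNOT4-AID cells with auxin, against 9.39 TPM untreated. Triptolide libraries held 18216427 to 26723618 counts, and no depth is known behind the TPM values.

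Auxin in CNOT1-AID cells lowered the 3 tested chemokines, CXCL5 by the largest log2 difference of the 3. After 8 h of auxin, CNOT1-AID cells held 9.01 and 8.83 TPM of CXCL5, against 44.5 and 56.3 TPM in untreated CNOT1-AID cells. After 24 h it stood at 5.73 and 5.70 TPM with auxin, against 65.1 and 61.3 TPM untreated. The groups did not overlap at either time. In a limma fit on log2(TMM-scaled TPM + 0.5), CXCL5 fell 6.52-fold at 8 h (log2 −2.70 ± 0.05 SE, adjusted p = 1.42e-15) and 12.1-fold at 24 h (log2 −3.59 ± 0.05, limma adjusted p = 3.83e-17). These folds are on the log2(value + 0.5) scale, which understates changes of low genes. Counted from the lowest log2 difference, it ranked 16 of 14921 tested genes at 8 h and 16 at 24 h. The response at 24 h exceeded that at 8 h by a log2 difference of −0.89 ± 0.08 (limma adjusted p = 4.30e-07), a comparison in which 18.9% of all genes passed in that direction. In such bulk libraries, fewer cells that express a gene and less of its RNA per cell cannot be told apart.

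**Figure D1:**
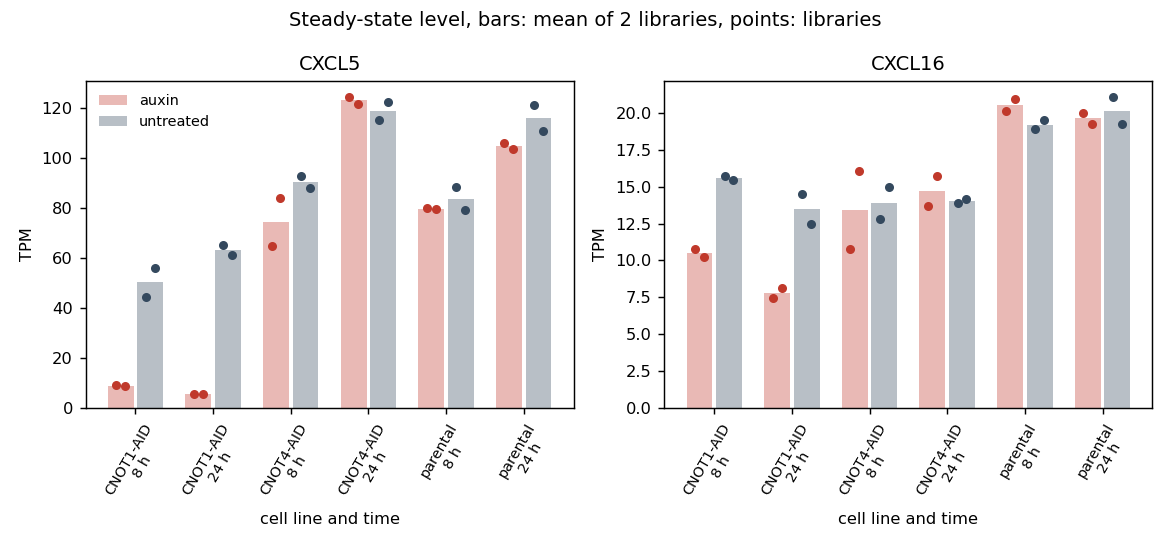
Steady-state level of CXCL5 and CXCL16 in TPM (vertical axis) by cell line and time (horizontal axis), with auxin left of untreated, points for the 2 libraries of a group and bars for their mean. CXCL5 is at 9.01 TPM or lower in all 4 auxin libraries of CNOT1-AID, and CXCL16 in these libraries lies between 7.45 and 10.8 TPM.

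CXCL16 and CXCL3 fell as well, by less. With 8 h of auxin, CNOT1-AID cells held 10.8 and 10.2 TPM of CXCL16, against 15.7 and 15.4 TPM untreated. At 24 h the values were 7.45 and 8.12 TPM with auxin, against 14.5 and 12.5 TPM untreated. The groups again did not overlap, and limma gave a 1.78-fold fall at 8 h (log2 −0.83 ± 0.11, adjusted p = 3.41e-06) and a 1.99-fold fall at 24 h (log2 −0.996 ± 0.106, adjusted p = 2.51e-07). CXCL3 stood at 0.31 and 0.26 TPM with 8 h of auxin, against 0.70 and 0.62 TPM untreated. At 24 h it stood at 0.29 and 0.30 TPM with auxin, against 0.72 and 0.64 TPM untreated. Its log2 difference was −0.68 ± 0.14 at 8 h (limma adjusted p = 3.46e-04) and −0.65 ± 0.14 at 24 h (limma adjusted p = 3.83e-04), and the response did not differ detectably between the times (0.03 ± 0.19, adjusted p = 0.936).

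All 3 tested members thus passed as lower at both times, where 29.8% of all genes were called lower at 8 h and 34.8% at 24 h. The change was broad in these cells, with 4931 genes higher and 4442 lower at 8 h, and 5473 higher and 5198 lower at 24 h. With a spike-in scaling (ERCC sequences) the median of all genes moved by 0.41 at 8 h and 0.31 at 24 h on the log2 scale, and all 3 members still passed as lower, with log2 differences at 8 h of −2.26 for CXCL5, −0.38 for CXCL16 and −0.49 for CXCL3.

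CXCL2, the close relative of CXCL3, did not reach the level needed for the main test but moved the same way. With 8 h of auxin, CNOT1-AID cells held 0.22 and 0.30 TPM of it, against 0.70 and 0.71 TPM untreated. At 24 h it stood at 0.06 and 0.15 TPM with auxin, against 0.57 and 0.91 TPM untreated. The groups did not overlap at either time. In the fit without a filter on low values, the log2 difference was −0.76 ± 0.16 at 8 h (limma adjusted p = 0.00187) and −1.05 ± 0.16 at 24 h (limma adjusted p = 7.42e-05), where 13.4% and 17.3% of all genes were called lower at these times. With auxin in parental cells the CXCL2 difference was −0.42 ± 0.16 at 8 h and 0.09 ± 0.16 at 24 h. In CNOT4-AID cells it was −0.19 ± 0.16 at 8 h and −0.41 ± 0.16 at 24 h. None of these passed, but in each the auxin and untreated libraries did not overlap. At 8 h parental cells held 0.58 and 0.41 TPM with auxin, against 0.79 and 0.77 TPM untreated.

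CXCL8 went the other way, late and at a very low level. With 24 h of auxin, CNOT1-AID cells held 0.35 and 0.26 TPM of it, against 0.04 and 0.07 TPM untreated, while at 8 h it stood at 0.02 and 0.00 TPM with auxin and at 0.00 and 0.10 TPM untreated. Groups overlapped at 8 h and did not at 24 h. In the fit without a filter CXCL8 rose at 24 h (log2 0.44 ± 0.14, limma adjusted p = 0.0204), where 20.9% of all genes were called higher. Its difference from the parental response was 0.41 ± 0.20 and did not pass (limma adjusted p = 0.145). CXCL1 and CCL20 did not pass in this fit, with group means of 0.1 TPM or less.

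**Figure D2:**
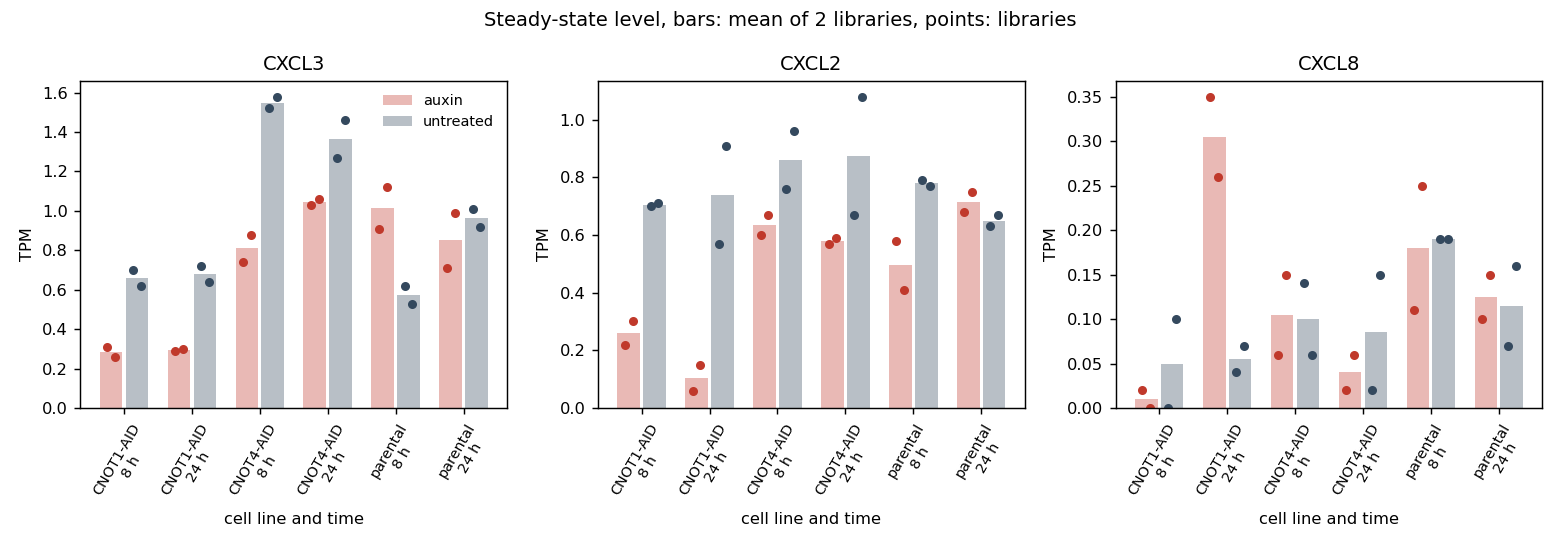
Steady-state level of CXCL3, CXCL2 and CXCL8 in TPM (vertical axes, each with its own range) by cell line and time (horizontal axis), auxin left of untreated, points for libraries and bars for the mean of 2. CXCL3 and CXCL2 are below their untreated libraries in CNOT1-AID at both times, and CXCL8 is highest in CNOT1-AID with 24 h of auxin at 0.35 and 0.26 TPM.

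Auxin in parental and in CNOT4-AID cells gave no call among the tested members. In parental cells CXCL5 stood at 80.1 and 79.6 TPM with 8 h of auxin, against 88.5 and 79.1 TPM untreated, which overlap. At 24 h it stood at 106 and 104 TPM with auxin, against 121 and 111 TPM untreated, which do not overlap. The log2 difference was −0.14 ± 0.05 (limma adjusted p = 0.909). None of the 3 tested members passed in parental cells at 8 h, where 0.0201% of all genes did, or at 24 h, where limma called 0% (0 genes, with 755 at an unadjusted p under 0.05). In CNOT4-AID cells CXCL5 stood at 64.9 and 84.0 TPM with 8 h of auxin, against 93.0 and 88.2 TPM untreated, which do not overlap. The lowest of these, 64.9 TPM, belongs to replicate 1, the library with the low protein-coding share. The scaled difference was −0.14 ± 0.05 (limma adjusted p = 0.344), and −0.11 ± 0.07 (limma adjusted p = 0.566) without that library. At 24 h the CNOT4-AID groups overlapped, with 125 and 122 TPM with auxin, against 115 and 123 TPM untreated. CXCL16 stood at 10.8 and 16.0 TPM with 8 h of auxin in CNOT4-AID cells, against 12.8 and 15.0 TPM untreated, and in parental cells it stood at 20.2 and 20.9 TPM with auxin, against 18.9 and 19.5 TPM untreated. The CXCL16 groups overlapped in CNOT4-AID and did not in parental cells. Its log2 differences were 0.07 ± 0.11 in CNOT4-AID and −0.01 ± 0.11 in parental cells. Groups of 2 libraries thus stood apart here without a call. None of the 3 passed in CNOT4-AID cells, at 8 h where 0.288% of all genes did or at 24 h where 4.51% did.

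The nearest to a call was CXCL3 in CNOT4-AID cells. It stood at 0.74 and 0.88 TPM with 8 h of auxin, against 1.52 and 1.58 TPM untreated, and at 1.03 and 1.06 TPM with 24 h of auxin, against 1.27 and 1.46 TPM untreated. Both pairs of groups were apart, with log2 differences of −0.59 ± 0.14 (limma adjusted p = 0.0935) and −0.37 ± 0.14 (limma adjusted p = 0.125). In parental cells CXCL3 stood at 0.91 and 1.12 TPM with 8 h of auxin, against 0.62 and 0.53 TPM untreated, log2 0.43 ± 0.14 (limma adjusted p = 0.736). At 24 h the parental groups overlapped.

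Compared directly with the parental response, the CNOT1-AID response was lower for all 3 tested members at both times. For CXCL5 the difference of responses was −2.54 ± 0.08 at 8 h (limma adjusted p = 7.75e-13) and −3.46 ± 0.08 at 24 h (limma adjusted p = 1.73e-14). For CXCL16 it was −0.82 ± 0.15 at 8 h (limma adjusted p = 2.28e-04) and −0.97 ± 0.15 at 24 h (limma adjusted p = 2.94e-05), and the 8 h value did not pass with ERCC scaling (−0.33 ± 0.19, adjusted p = 0.166). For CXCL3 it was −1.11 ± 0.19 at 8 h (limma adjusted p = 1.43e-04), of which the parental difference of 0.43 makes up part. At 24 h it was −0.53 ± 0.19 (limma adjusted p = 0.0232). That call was lost with ERCC scaling (−0.35, adjusted p = 0.212), without scaling (−0.44, adjusted p = 0.0826) and with only the groups compared in the fit (adjusted p = 0.094). It was also lost in 4 of the 8 fits that left out 1 library: replicate 2 of parental auxin (−0.39, adjusted p = 0.117), replicate 2 of untreated parental (−0.51, adjusted p = 0.06), replicate 1 of untreated CNOT1-AID (−0.51, adjusted p = 0.0607) and replicate 1 of CNOT1-AID with auxin (−0.51, adjusted p = 0.0563). Of all genes, 23.2% were called lower in this comparison at 8 h and 29.6% at 24 h. CXCL2 in the fit without a filter passed at 24 h (−1.13 ± 0.23, limma adjusted p = 0.00118), where 13.4% of all genes were called lower, and not at 8 h (−0.33 ± 0.23, adjusted p = 0.383). The CNOT4-AID response did not pass against the parental one for any of the 3 at 8 h, where 0.0134% of genes did, or at 24 h, where 0.067% did. For CXCL5 these differences were 0.03 ± 0.08 at 8 h and 0.06 ± 0.08 at 24 h. For CXCL3 the 8 h difference was −1.02 ± 0.19 (limma adjusted p = 0.101), beside −1.11 ± 0.19 in CNOT1-AID cells, and in the fit without a filter it passed (−1.01 ± 0.16, limma adjusted p = 0.0316), where 0.0312% of all genes were called lower. Both values contain the parental difference of 0.43. The difference between the CNOT1-AID and CNOT4-AID responses was not tested.

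The lines also differed before auxin. Untreated CNOT1-AID cells held 44.5 and 56.3 TPM of CXCL5 at 8 h, against 88.5 and 79.1 TPM in untreated parental cells (log2 −0.71 ± 0.05, limma adjusted p = 1.81e-07). At 24 h the difference was −0.84 ± 0.05 (limma adjusted p = 2.15e-08). CXCL5 was thus lower in the untreated tagged line, by less than after auxin. CXCL16 was lower at 24 h (−0.53 ± 0.11, limma adjusted p = 0.00401) and did not pass at 8 h (−0.27 ± 0.11, adjusted p = 0.13). The 24 h call was lost without replicate 2 of untreated CNOT1-AID cells (−0.46, adjusted p = 0.0588). Of all genes 4.98% were called lower at 8 h and 4.66% at 24 h.

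Untreated CNOT4-AID cells held more CXCL3 than untreated parental cells, 1.52 and 1.58 TPM against 0.62 and 0.53 TPM at 8 h (log2 1.17 ± 0.14, limma adjusted p = 2.91e-05). At 24 h the log2 difference was 0.51 ± 0.14 (limma adjusted p = 0.0196), a call lost in each of the fits that left out 1 library of these 4, with adjusted p between 0.0531 and 0.105. CXCL5 was higher by 0.42 ± 0.05 at 8 h (limma adjusted p = 8.52e-05) and 0.27 ± 0.05 at 24 h (limma adjusted p = 0.00367), and on the TPM as deposited, without scaling, these were 0.11 and 0.04 and did not pass, nor did the 24 h value with ERCC scaling (0.27, adjusted p = 0.267). With the main scaling, 3.14% of all genes were called higher at 8 h and 7.18% at 24 h. Without scaling, the median of all genes stood at −0.28 at 8 h and −0.21 at 24 h. The steady-state comparisons of 1 line share its untreated libraries, so their values stand side by side and are not independent.

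Under triptolide, CXCL5 showed no tested decline and CXCL16 a slow one in CNOT4-AID cells. CXCL2 and CXCL3 mRNA was largely gone after 3 h in CNOT4-AID and parental cells. CXCL2 had 0 counts at 3 h in CNOT1-AID cells too. CXCL8 mRNA was largely gone after 3 h in CNOT4-AID cells. In parental cells CXCL8 had 1 and 13 counts at 0 h, so that its fall there rests on 1 library. In CNOT1-AID cells CXCL5 had 2867 and 2473 counts at 0 h, 3477 and 3095 at 3 h, 4369 and 3982 at 6 h and 5028 and 4452 at 12 h. Scaled to ERCC spike-in RNA and given as CPM, the count per scaled library size, these were 183 and 178 CPM at 0 h and 241 and 186 at 12 h. No decline was detectable over 12 h. In parental cells the scaled level was 256 and 258 CPM at 0 h and 349 and 277 at 12 h. In CNOT4-AID cells it was 531 and 298 at 0 h and 417 and 236 at 12 h, where replicate 2, the lower of the pair, had an ERCC share of 3.92% against 2.25% in replicate 1.

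The fitted slopes of CXCL5, in log2 units per hour, were 0.013 ± 0.025 in CNOT1-AID cells, −0.030 ± 0.026 in CNOT4-AID cells and 0.022 ± 0.026 in parental cells, none of which passed (edgeR quasi-likelihood test, adjusted p = 0.757 in CNOT1-AID, 0.274 in CNOT4-AID and 0.535 in parental cells). Scaled to the genes by TMM in place of the spike-ins, the slope in CNOT4-AID cells turned to 0.108. Of the 16806 genes, 96.0% had a lower slope in CNOT1-AID cells, 96.5% in CNOT4-AID cells and 93.2% in parental cells. The decline of CXCL5 with auxin in CNOT1-AID cells, −2.70 over 8 h, amounts to a mean of −0.338 ± 0.007 log2 units per hour. The slope under triptolide in the same line, with 2 h of auxin before it, was 0.013 ± 0.025. The first value compares untreated and auxin cells on a relative scale and the second follows cells in which transcription is blocked on a spike-in scale, so the test between them was not run.

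CXCL16 declined little or not detectably. In CNOT1-AID cells it had 502 and 484 counts at 0 h and 695 and 641 at 12 h, in CNOT4-AID cells 857 and 981 at 0 h and 1402 and 1388 at 12 h, and in parental cells 674 and 597 at 0 h and 885 and 966 at 12 h. Scaled to the spike-ins, on which its slopes rest, the level was 32.1 and 34.9 CPM at 0 h and 33.4 and 26.7 at 12 h in CNOT1-AID cells, 54.0 and 60.2 CPM at 0 h and 40.9 and 24.5 at 12 h in CNOT4-AID cells, and 40.8 and 23.9 CPM at 0 h and 35.2 and 31.5 at 12 h in parental cells. The times did not overlap in CNOT4-AID cells and did in the other lines. Its slopes were −0.019 ± 0.025 in CNOT1-AID cells, −0.063 ± 0.025 in CNOT4-AID cells and 0.005 ± 0.025 in parental cells. Only the slope in CNOT4-AID cells passed (edgeR adjusted p = 0.018, a half-life of 15.8 h, beyond the 12 h sampled), and it did not without replicate 2 at 12 h (−0.036, adjusted p = 0.231). Scaled to the genes in place of the spike-ins, this slope turned to 0.076.

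CXCL3 and CXCL2, the members with the most ATTTA per kb of 3' UTR, were at a few counts by 3 h. CXCL3 had 13 and 9 counts at 0 h and 1 and 4 at 3 h in CNOT1-AID cells. In CNOT4-AID cells it had 52 and 32 counts at 0 h and 2 and 2 at 3 h, and in parental cells 20 and 17 at 0 h and 0 and 2 at 3 h. After 3 h, every library of the 3 lines held 4 counts or fewer. The ratio of 3 h to 0 h, from summed counts with spike-in exposure, was 0.218 (95% exact interval 0.0645 to 0.590) in CNOT1-AID cells, 0.0325 (0.00865 to 0.0863) in CNOT4-AID cells and 0.0472 (0.00551 to 0.183) in parental cells. PCR copies of 1 molecule are not separate observations, so the intervals reflect nothing beyond counting error. The intervals of CNOT1-AID and parental cells overlap.

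CXCL2 had 7 and 4 counts at 0 h and 0 and 0 at 3 h in CNOT1-AID cells. In CNOT4-AID cells it had 15 and 20 counts at 0 h and 1 and 1 at 3 h, and in parental cells 17 and 14 at 0 h and 1 and 1 at 3 h. The ratio of 3 h to 0 h was 0.039 (0.00454 to 0.152) in CNOT4-AID cells and 0.0563 (0.00653 to 0.221) in parental cells. In CNOT1-AID cells, with 0 counts at 3 h, the level was at least 3.82-fold lower than at 0 h, taking a floor of 3 counts over the group. The difference of its slopes between CNOT1-AID and parental cells was 0.23 ± 0.25 and did not pass (edgeR adjusted p = 0.75).

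CXCL8 kept more counts in CNOT1-AID cells. It had 13 and 21 counts at 0 h, 24 and 6 at 3 h, 12 and 11 at 6 h and 9 and 18 at 12 h there. In CNOT4-AID cells it had 12 and 16 counts at 0 h, 1 and 2 at 3 h, 1 and 1 at 6 h and 4 and 0 at 12 h. In parental cells it had 1 and 13 counts at 0 h, 0 and 1 at 3 h, 0 and 1 at 6 h and 1 and 1 at 12 h. From 3 h on, the 6 CNOT1-AID libraries (6 to 24 counts) lay above all libraries of both other lines (0 to 4 counts). The ratio of 3 h to 0 h was 0.847 (0.5 to 1.43) in CNOT1-AID cells, 0.0731 (0.0142 to 0.237) in CNOT4-AID cells and 0.0623 (0.00147 to 0.410) in parental cells, where 1 library holds nearly all counts at 0 h.

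**Figure D3:**
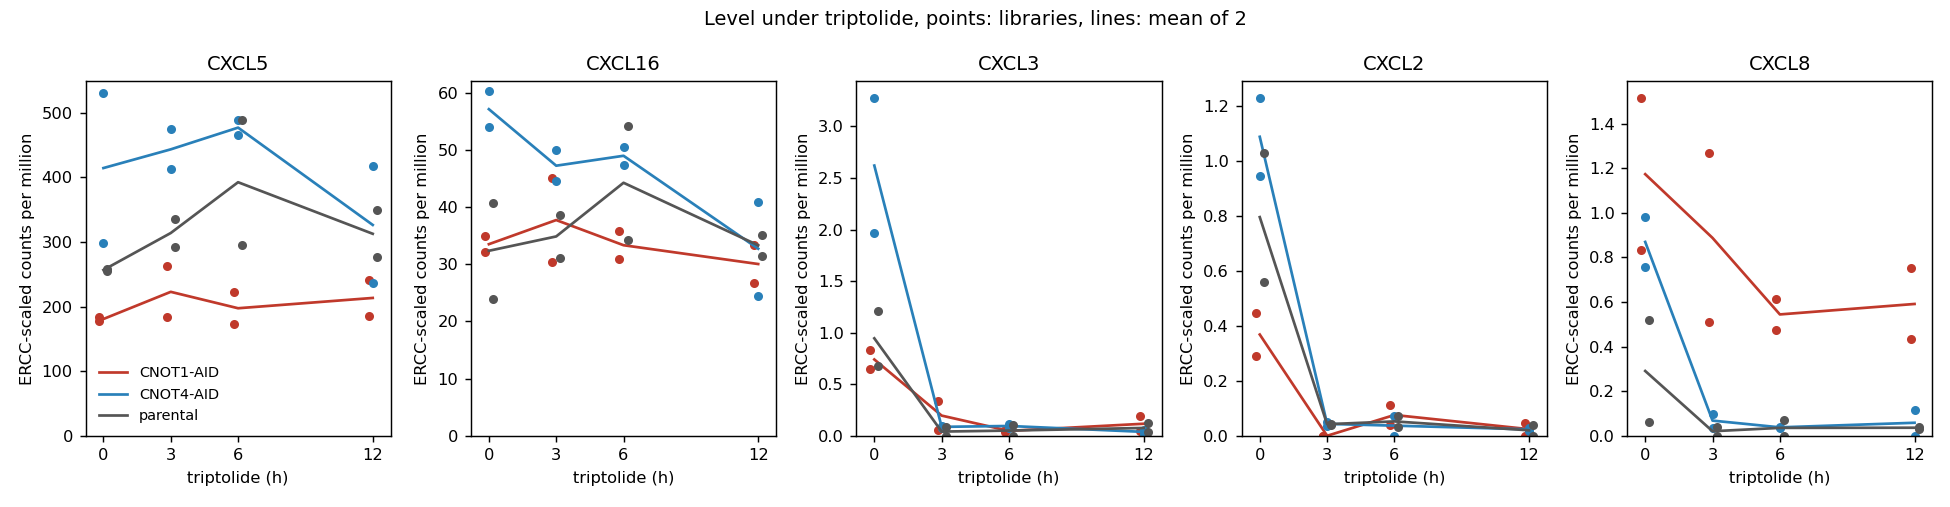
CPM scaled to ERCC spike-in RNA (vertical axes, linear, each with its own range) against hours of triptolide (horizontal axis) for 5 members, with points for libraries, shifted slightly sideways by line, and lines for the mean of 2. CXCL5 shows no tested decline, and CXCL16 is at 40.9 and 24.5 CPM at 12 h in CNOT4-AID, where it was at 54.0 and 60.2 CPM at 0 h. CXCL3 and CXCL2 are near 0 from 3 h in CNOT4-AID and parental cells. In CNOT1-AID, CXCL3 is at 0.053 and 0.339 CPM at 3 h, where it was at 0.831 and 0.649 CPM at 0 h. CXCL2 in CNOT1-AID is at 0 and 0 CPM at 3 h, where it was at 0.4475 and 0.2885 CPM at 0 h. From 3 h on, the CXCL8 points of CNOT1-AID lie above those of both other lines.

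Slopes over all 4 times include the later times, at which these mRNAs stayed at a few counts. The half-life of CXCL2 from these slopes was 2.75 h in CNOT1-AID, 1.72 h in CNOT4-AID and 1.67 h in parental cells. That of CXCL3 was 3.87 h in CNOT1-AID, 1.64 h in CNOT4-AID and 2.82 h in parental cells. That of CXCL8 was 11.9 h in CNOT1-AID, 2.53 h in CNOT4-AID and 3.11 h in parental cells. The half-life of the median slope over all genes was 30.7 h in CNOT1-AID cells, 6.91 h in CNOT4-AID cells and 14.7 h in parental cells. Over 0 to 3 h alone, a range chosen after seeing the data, the slopes of CXCL2 and CXCL3 were steeper. For CXCL2 they were −1.56 ± 0.31 in CNOT4-AID and −1.40 ± 0.32 in parental cells. For CXCL3 they were −0.71 ± 0.28 in CNOT1-AID, −1.65 ± 0.25 in CNOT4-AID and −1.49 ± 0.31 in parental cells. For CXCL8 they were −0.11 ± 0.22, −1.25 ± 0.32 and −1.31 ± 0.44 in the same order. For CXCL2 and CXCL3 the half-lives over 12 h thus exceed those of the first 3 h. Over all 4 times, none of the 5 tested members passed as declining in CNOT1-AID cells (edgeR, adjusted p = 0.0804 for CXCL2, 0.177 for CXCL3 and 0.524 for CXCL8), where 11.7% of all genes did. CXCL3 did pass there over 0 to 6 h alone (−0.675 ± 0.185, edgeR adjusted p = 0.0104). It also passed in the fit without a filter (−0.256 ± 0.078, edgeR adjusted p = 0.019). In CNOT4-AID cells 4 of 5 passed, all but CXCL5, where 83.5% of all genes did. In parental cells 3 of 5 passed, CXCL2, CXCL3 and CXCL8, where 44.2% of all genes did. With scaling to the genes by TMM the CXCL8 slope did not pass (−0.282, edgeR adjusted p = 0.11). Nor did it with DESeq2 (−0.285, DESeq2 adjusted p = 0.0934). In addition, 2 of these calls rest on single libraries. The CXCL8 call was lost without replicate 2 at 0 h (a slope of −4.84e-04, adjusted p = 0.999), replicate 1 at 6 h (adjusted p = 0.0572) or replicate 2 at 12 h (adjusted p = 0.0628). The CXCL3 call was lost without replicate 1 at 0 h (−0.26, adjusted p = 0.107) or replicate 2 at 12 h (−0.36, adjusted p = 0.0629).

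The difference of slopes itself passed for 1 member in 1 comparison. CXCL8 declined more slowly in CNOT1-AID than in CNOT4-AID cells by 0.31 ± 0.12 log2 units per hour (edgeR adjusted p = 0.0394), a comparison in which 42.6% of all genes were called in that direction. The call was lost in 8 of the 16 fits that left out 1 library, with DESeq2 (0.27 ± 0.14, adjusted p = 0.109) and with scaling to the genes (0.22 ± 0.14, adjusted p = 0.214). Over 0 to 6 h alone the difference was 0.70 ± 0.24 (edgeR adjusted p = 0.0312). Against parental cells the CXCL8 difference in CNOT1-AID cells was 0.24 ± 0.15 and did not pass (edgeR adjusted p = 0.423). None of the 5 members passed for CNOT1-AID against parental cells, where 16.5% of all genes did, or for CNOT4-AID against parental cells, where 0.137% did.

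**Figure D4:**
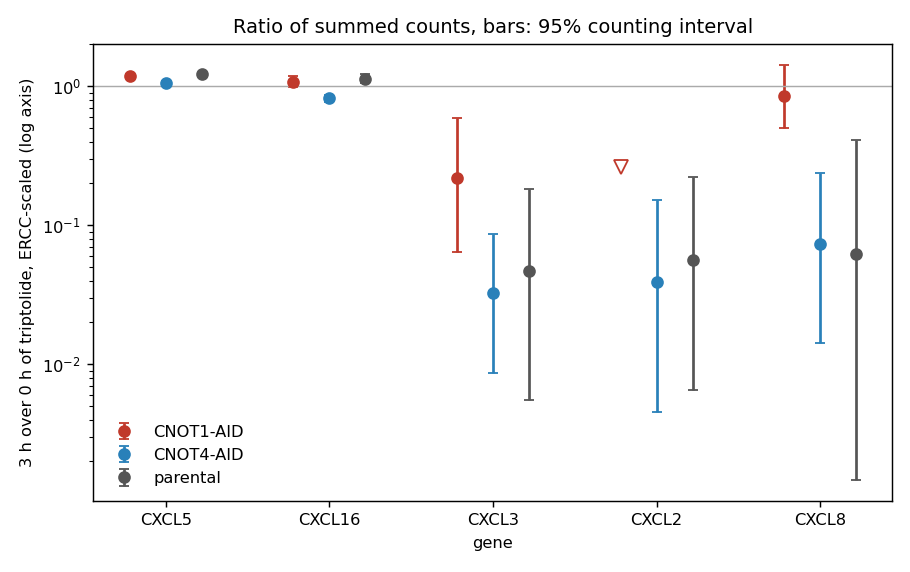
Ratio of 3 h to 0 h of triptolide (vertical axis, log scale) for 5 members (horizontal axis) in the 3 lines, from counts summed over 2 libraries with ERCC exposure, bars giving the 95% counting interval and the open triangle an upper limit where 0 counts were seen at 3 h. CXCL8 stands at 0.847 in CNOT1-AID, against 0.0731 in CNOT4-AID and 0.0623 in parental cells.

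At 0 h of triptolide, after 2 h of auxin in all lines, CXCL5 was already lower in CNOT1-AID than in parental cells, with 2867 and 2473 counts against 4229 and 6432 (log2 −0.92 ± 0.15, edgeR adjusted p = 4.85e-04). It was the only 1 of 5 members called lower, where 4.84% of all genes were. The untreated lines differed by −0.71 and −0.84 in the steady-state set, so that this difference and one set by 2 h of auxin cannot be told apart. CXCL16 was higher in CNOT4-AID than in parental cells, with 857 and 981 counts against 674 and 597 (log2 0.53 ± 0.12, edgeR adjusted p = 0.00749), where 7.88% of all genes were called higher. In the untreated steady-state libraries the log2 difference of CXCL16 between these lines was −0.16 at 8 h and −0.28 at 24 h, neither of which passed. On the TPM without scaling, both passed as lower (−0.46, limma adjusted p = 0.0165 and −0.51, limma adjusted p = 0.0157). Neither 0 h call passed with ERCC scaling (−0.51, adjusted p = 0.311 for CXCL5 and 0.82, adjusted p = 0.159 for CXCL16), and the parental pair at 0 h agreed least of all triptolide pairs (r = 0.971 across genes, against 0.986 to 0.992 in the others). Without parental replicate 2, CXCL8 passed as higher in CNOT1-AID cells (4.00, edgeR adjusted p = 0.0156) and in CNOT4-AID cells (3.67, edgeR adjusted p = 0.0315), against a single parental library with 1 count, and CXCL16 passed as lower in CNOT1-AID cells (−0.54, edgeR adjusted p = 3.59e-04). Without CNOT4-AID replicate 2, CXCL5 passed as higher in CNOT4-AID cells (0.68, edgeR adjusted p = 3.11e-04) and CXCL16 did not pass (0.41, adjusted p = 0.0937).

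The receptors of these chemokines were scarcely present. Of 23 chemokine receptor genes, 1 (CCRL2, 3.01 TPM) had a mean of 1 TPM or more, 2 were tested and 0 were called with auxin in CNOT1-AID cells at 8 h and at 24 h, where ERCC scaling gave 1 higher at 24 h. CXCR2, the receptor of 5 of the members, averaged 0.0179 TPM. Of 37 other chemokines 4 were tested, and 1 was higher and 2 lower at 8 h and 1 higher and 3 lower at 24 h in CNOT1-AID cells, while ERCC scaling gave 1 higher and 1 lower at each time. Among them CCL26, a ligand of CCR3 that attracts eosinophils, fell to 3.63 ± 0.45 TPM with 8 h of auxin, against 5.99 ± 0.08 TPM untreated (SD, n = 2 each), log2 −0.92 ± 0.18 (limma adjusted p = 2.46e-04). Beside these counts, 33% of all genes were called higher and 29.8% lower at 8 h, and 36.7% higher and 34.8% lower at 24 h. ERCC scaling moved the median of all genes to 0.41 at 8 h and 0.31 at 24 h.

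Genes of the NF-kB axis were all expressed, and more of them rose than fell with auxin in CNOT1-AID cells. Of 22 genes, 12 rose and 3 fell at 8 h, and 12 rose and 2 fell at 24 h, where 33% of all genes were called higher and 29.8% lower at 8 h, and 36.7% higher and 34.8% lower at 24 h. The median log2 difference was 0.36 at 8 h and 0.52 at 24 h, beside 0.00 and −0.01 over all genes. NFKBIA, the inhibitor that NF-kB itself induces, reached 205 ± 10.2 TPM with 8 h of auxin, against 27.4 ± 0.73 TPM untreated (SD, n = 2 each), a 5.99-fold rise (limma adjusted p = 2.17e-12). TRAF6, an adaptor of interleukin-1 and Toll-like receptors, rose 3.35-fold at 8 h (limma adjusted p = 9.24e-11). IRAK1, a kinase of the same pathway, stood at 32.1 ± 0.35 TPM with 8 h of auxin, against 63.6 ± 0.95 TPM untreated, and at 13.4 ± 1.37 TPM with 24 h of auxin, against 57.2 ± 0.52 TPM untreated (SD, n = 2 each). It fell at both times (log2 −1.27 ± 0.09, limma adjusted p = 1.45e-09 at 8 h and −2.31 ± 0.09, limma adjusted p = 4.21e-13 at 24 h). ERCC scaling gave 19 higher and 1 lower at 8 h, and 20 higher and 1 lower at 24 h. The shares of all genes above belong to TMM scaling. With ERCC scaling the median of all genes stood at 0.41 at 8 h and 0.31 at 24 h. It called 9248 genes at 8 h and 9906 at 24 h in either direction. Under triptolide, 8 of the 22 declined more slowly in CNOT1-AID than in parental cells and 0 faster, where 15.5% of all genes were called slower and 0.97% faster, NFKBIA by 0.68 ± 0.15 log2 units per hour (edgeR adjusted p = 0.0023).

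Of 18 inducers and their receptors, 9 were tested, with 5 higher and 1 lower at 8 h and 8 higher and 1 lower at 24 h, beside 33% and 36.7% of all genes called higher at these times. ERCC scaling gave 7 higher and 0 lower at 8 h and 8 higher and 0 lower at 24 h, where the median of all genes stood at 0.41 and 0.31. TLR2, a receptor for bacterial lipoproteins, reached 19.1 ± 0.66 TPM with 24 h of auxin, against 3.74 ± 0.06 TPM untreated, and TNFRSF1A, the main receptor of TNF, reached 104 ± 1.99 TPM, against 36.3 ± 2.12 TPM untreated (SD, n = 2 each).

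Among 18 AU-rich element and decay factors, 8 rose and 7 fell at 8 h, and 9 rose and 8 fell at 24 h. Both directions were common over all genes too, with 33% higher and 29.8% lower at 8 h and 36.7% higher and 34.8% lower at 24 h. With ERCC scaling 12 rose and 1 fell at 8 h, and 9 rose and 3 fell at 24 h, where the median of all genes stood at 0.41 and 0.31. ZFP36L2, of the tristetraprolin family, reached 36.8 ± 0.28 TPM with 8 h of auxin, against 11.0 ± 0.93 TPM untreated, and its relative ZFP36L1 reached 327 ± 4.01 TPM, against 106 ± 12.3 TPM untreated (SD, n = 2 each). CNOT6L and CNOT8, deadenylases of the complex, rose as well, CNOT6L 2.71-fold at 8 h (limma adjusted p = 1.24e-11) and CNOT8 3.28-fold at 24 h (limma adjusted p = 9.08e-14). Of the proteases that release CXCL16, ADAM17 rose at 8 h (log2 0.26 ± 0.06, limma adjusted p = 8.64e-04) and ADAM10 fell at 24 h (log2 −0.52 ± 0.12, limma adjusted p = 0.00109), while with ERCC scaling 1 of the pair was higher and 0 lower at 24 h. In CNOT4-AID and parental cells no gene of these 6 lists passed at either time. Few of all genes did, 0.288% at 8 h and 4.51% at 24 h in CNOT4-AID cells, and 0.0201% and 0% in parental cells.

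The genes whose levels followed CXCL5 most closely over the 12 group means were UBE4A (Pearson r = 0.996), GSTP1 (0.989) and COMMD6 (0.989), out of 9079 genes with a mean of 5 TPM or more. Those of CXCL16 were C3orf52 (0.975), CBX6 (0.970) and MAP3K14 (0.968). These r values describe 12 groups that share lines and times, and carry no test.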

How the data were processed

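Total RNA was sequenced as stranded, ribosomal-RNA-depleted libraries with ERCC spike-in RNA, per the labels' protocols. The authors deposited TPM per gene for the 24 steady-state libraries, whose values sum to between 999998.92 and 1000000.81, and raw counts per gene for the 24 triptolide libraries (18216427 to 26723618 each). STAR 2.5.1b, RSEM, featureCounts, DESeq2, SAMtools and the build hg38 are named in the submitters' processing notes; which tool made which table is not given in the sources used here. TT-seq was not analysed here.

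TPM were scaled by TMM and tested with limma 3.58.1 (trend, robust) on log2(TPM + 0.5) over all 12 groups. Genes with at least 1 TPM in at least 2 libraries were kept, 14921 of them. Counts were tested with edgeR 4.0.16, robust quasi-likelihood, as slopes per hour scaled to 56 ERCC sequences of mean count 10 or more, and at 0 h with TMM, over 16806 genes. P-values were adjusted by Benjamini-Hochberg over all genes of a comparison, with a threshold of 0.05. Equal RNA amounts were taken into the libraries, so ERCC scaling is relative to total RNA and not to cell number. The scripts were tested on simulated data. The 7 members and the gene lists were chosen with earlier results of these data known, and up to 3 genes were named per list and comparison, those of largest called change among genes with a mean of at least 5 TPM. Alternatives were other scalings, filters, DESeq2 1.42.0, a replicate block, shorter time ranges and leaving out each library. CXCL1 and CCL20 did not pass either filter.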

Additional observations from a re-analysis of the deposited data

Results flagged for a closer look

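The auxin response of CNOT1-AID cells differed from that of parental cells for the 3 tested members, by a test of the difference itself (limma, on the log2 scale). At 8 h the difference was −2.54 for CXCL5, −0.824 for CXCL16 and −1.11 for CXCL3. At 24 h it was −3.46 for CXCL5, −0.968 for CXCL16 and −0.534 for CXCL3. Of all genes, 23.2% were called lower in this comparison at 8 h and 29.6% at 24 h. With ERCC scaling, CXCL16 at 8 h (limma adjusted p = 0.166) and CXCL3 at 24 h (limma adjusted p = 0.212) did not pass. The CXCL3 call at 24 h was also lost without scaling and in some fits that left out 1 library. The response of CXCL5 in CNOT1-AID cells also differed between the times, by −0.888 (24 h minus 8 h), where 18.9% of all genes passed in that direction. Under triptolide the slope of CXCL8 in CNOT1-AID cells exceeded that in CNOT4-AID cells by 0.311 log2 units per hour (edgeR), from libraries with 0 to 24 counts of this gene. Of all genes, 42.6% were called in that direction. The CXCL8 call was lost with DESeq2 (adjusted p = 0.109) and in some fits that left out 1 library.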

How the results depend on the processing

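Of 1875 values of members and lists under the alternatives, 1756 kept direction and side of the threshold, 88 lost and 23 gained a call, and 8 reversed. The count of members called for auxin in CNOT1-AID cells was 3 in every fit without 1 library at 8 h and at 24 h. With all libraries, 29.8% of all genes were called lower at 8 h and 34.8% at 24 h. Without a filter the count was 5 at 24 h, with CXCL5, CXCL16, CXCL3 and CXCL2 lower and CXCL8 higher. In that fit 17.3% of all genes were called lower and 20.9% higher. Leaving out 1 library gave 2 to 3 members for the CNOT1-AID minus parental response at 24 h (3 with all libraries), 1 to 2 for untreated CNOT1-AID at 24 h (2), 1 for untreated CNOT4-AID at 24 h (2), 0 to 2 for the slopes of CNOT4-AID minus parental (0) and of CNOT1-AID minus CNOT4-AID (1), and at 0 h 1 to 3 in CNOT1-AID (1) and 1 to 2 in CNOT4-AID (1). For untreated CNOT4-AID against parental cells at 24 h the calls of CXCL3 and CXCL5 as higher were both lost with ERCC scaling (0 called), with only the groups compared (0) and without scaling, where the 1 member called was CXCL16, as lower (−0.51, adjusted p = 0.0157). Without a filter it was 1 (CXCL3) for the CNOT4-AID minus parental response at 8 h, 2 (CXCL3 and CXCL8) for the slopes of CNOT1-AID minus CNOT4-AID and 2 for CNOT4-AID at 0 h. ERCC scaling left 0 at 0 h in both tagged lines. For CNOT4-AID minus parental slopes it was 1 (CXCL3) without both parental 0 h libraries, an alternative chosen after seeing the data.

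Scaling the triptolide counts to the genes, by TMM or by DESeq2 size factors, gave 1 member (CXCL16) for CNOT1-AID minus parental slopes. For CNOT1-AID minus CNOT4-AID slopes it gave 2 (CXCL5 and CXCL16, with CXCL8 lost), and DESeq2 gave 0. Of the 16806 genes, TMM called 6091 in the first comparison and 6678 in the second, in either direction. Size factors called 5913 and 6722. The CNOT1-AID minus CNOT4-AID slope turned to −0.0569 (TMM) and −0.0574 (size factors) for CXCL16 and to −0.0580 and −0.0586 for CXCL5. The slope in CNOT4-AID cells turned to 0.0760 and 0.0773 for CXCL16 and to 0.108 and 0.109 for CXCL5. These scalings centre the slopes on the bulk of genes, so they are relative to other genes. The cause of the other changes was not tested.

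Same-numbered libraries share a number in the labels, and whether they were made together is not given in the sources used here. The correlation of their deviations between groups had a median of 4.64e-04 in the steady-state set (8 of 66 pairs of groups over 0.1). There it ran from −0.221 to 0.201. Under triptolide the median was −0.00192 (0 of 66 over 0.1). A median near 0 cannot show that no groups were paired. With the replicate number as a block, the members called for CNOT1-AID minus CNOT4-AID slopes went to 0, against 1 without the block, CXCL8 having 0.303 ± 0.126 (edgeR adjusted p = 0.05). The 0 to 3 h slope of CXCL2 in CNOT1-AID cells, with 0 counts at 3 h, gave no value; the 0 to 3 h range was also chosen after seeing the data. Low counts, at most 52 a library, limit CXCL2, CXCL3 and CXCL8.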
